A study of Mus musculus with 8 samples.

Results

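The Slc22 and Slco families are among the carriers by which liver and kidney cells take up organic cations, organic anions, carnitine, bile acids and drugs. Their members were chosen by gene symbol: every gene of the liver count table whose identifier maps in GENCODE M21 to Slc22a or Slco followed by a digit. This gave 41 of the 46517 genes of the table, 26 of them Slc22 and 15 Slco. Both families were compared between mice lacking FoxO1 in myeloid cells (MøFoxO1-KO, n = 4, replicates 26 to 29) and WT littermates (n = 4, replicates 22 to 25). All 8 were male C57BL/6 mice with loxP-flanked FoxO1 alleles, and the MøFoxO1-KO mice also carried Cre driven by the promoter of Lyz2, the lysozyme gene of myeloid cells. Lyz2-Cre is active in myeloid cells of the whole body and is not specific to liver macrophages, and it is not directed at hepatocytes. Every mouse had eaten a NASH-inducing diet for 25 weeks from the age of 6 weeks and was 31 weeks old and fasted for 16 hours when whole liver RNA was taken for polyA RNA-Seq.

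Slc22 proteins are grouped by substrate. The organic cation transporters (OCT) move positively charged compounds, the OCTN group moves carnitine and related zwitterions, and the organic anion transporters (OAT) move anionic metabolites and drugs. Slco genes encode the organic anion transporting polypeptides (OATP), which in liver take bile acids, bilirubin conjugates, hormone conjugates and drugs out of sinusoidal blood into hepatocytes. Both families hold clusters of neighbouring genes that arose by duplication, and the rodent OAT cluster on chromosome 19 has members with few known substrates.

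The libraries held 15253218 to 18025481 counts each, with medians of 16361030 in WT and 16441783.5 in MøFoxO1-KO mice. Foxo1 itself was counted 328 to 467 times in WT and 253 to 448 times in MøFoxO1-KO livers (log2 fold change -0.17, SE 0.18, adjusted P = 0.686, edgeR quasi-likelihood test with Benjamini-Hochberg adjustment), so no difference in Foxo1 was detectable in whole liver RNA. A gene was called when its adjusted P was under 0.05 and its log2 fold change was over 1.5 in either direction. Of 13278 genes tested, 25 (0.188%) were called, 7 higher (0.0527%) and 18 lower (0.136%) in MøFoxO1-KO mice, and the median log2 fold change of all tested genes was -0.01. Hepatocyte markers were abundant in every library. Their sum was 68940 to 94380 CPM (counts scaled to a library of 1e6) in WT and 81590 to 117700 in MøFoxO1-KO livers, and all 5 markers were nominally higher in MøFoxO1-KO mice with none called. The summed macrophage markers were 106 to 196 CPM in WT and 120 to 512 in MøFoxO1-KO livers (5 of 6 nominally higher), the endothelial markers 85.2 to 182 and 138 to 221 (5 of 5 higher), the stellate markers 93.9 to 166 and 108 to 170 (3 of 5 higher), and the cholangiocyte markers 10.4 to 13.0 and 8.39 to 11.3 (4 of 4 tested lower). T and B cell markers summed to 1.20 to 6.98 and 4.91 to 11.9 CPM (4 of 4 higher), and neutrophil markers to 1.14 to 3.83 and 0.58 to 4.09 (2 of 2 tested lower, Ly6g at most 1 count). None of these markers was called, and their part in the transporter results was not tested. In whole liver RNA, fewer cells of a type and less RNA per cell cannot be told apart.

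The OAT cluster on chromosome 19 carried the called genes, and the 250 bases before the annotated start of 4 of its members are shown here because they belong to 1 cluster and differed in direction. They were read from the RefSeq promoter table of the mouse build GRCm38.p6. Slc22a28 and Slc22a30 have nearly the same upstream sequence: of 244 aligned bases 238 were identical, which is 93.0% of 256 alignment columns. In this pair the capitals mark the bases not identical in the other gene. These include unaligned bases at the start of the Slc22a28 window and just before the last base of the Slc22a30 window.
Slc22a28 (chr19:8131983-8132232, minus strand): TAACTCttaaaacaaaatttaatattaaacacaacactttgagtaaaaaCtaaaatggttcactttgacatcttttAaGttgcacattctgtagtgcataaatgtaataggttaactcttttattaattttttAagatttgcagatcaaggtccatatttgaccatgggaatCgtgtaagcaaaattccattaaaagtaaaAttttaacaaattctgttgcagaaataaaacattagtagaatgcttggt
Slc22a30 (chr19:8405106-8405355, minus strand): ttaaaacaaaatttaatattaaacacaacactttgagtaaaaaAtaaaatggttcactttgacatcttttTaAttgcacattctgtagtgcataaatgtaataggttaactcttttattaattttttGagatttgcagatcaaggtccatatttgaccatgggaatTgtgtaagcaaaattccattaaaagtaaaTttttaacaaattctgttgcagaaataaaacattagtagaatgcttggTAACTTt

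The upstream sequences of Slc22a29 and Slc22a26 were less alike. Slc22a29 was identical to Slc22a28 in 65.1% and to Slc22a30 in 62.7% of alignment columns, and Slc22a26 to Slc22a30 in 51.8%. Capitals mark the STAT5 and then the ONECUT core match in Slc22a26, and Slc22a29, which held no match to the letters searched, is in lower case throughout.
Slc22a29 (chr19:8218901-8219150, minus strand): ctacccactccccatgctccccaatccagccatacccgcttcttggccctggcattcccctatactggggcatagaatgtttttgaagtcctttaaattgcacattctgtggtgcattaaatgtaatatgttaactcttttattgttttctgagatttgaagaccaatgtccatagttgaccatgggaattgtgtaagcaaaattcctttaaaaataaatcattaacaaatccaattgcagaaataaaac
Slc22a26 (chr19:7802668-7802917, minus strand): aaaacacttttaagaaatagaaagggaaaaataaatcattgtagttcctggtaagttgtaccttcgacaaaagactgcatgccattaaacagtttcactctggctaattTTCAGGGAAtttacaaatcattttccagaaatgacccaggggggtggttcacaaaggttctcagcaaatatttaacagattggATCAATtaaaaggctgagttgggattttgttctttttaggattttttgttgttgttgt

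The letters searched, on both strands, were TTCNNNGAA for STAT5, GTAAACA for forkhead factors such as FoxO1 and FoxA2, and ATCAAT for the ONECUT core, and the STAT5 and ONECUT core matches did not overlap in the windows shown. Of the 41 members 35 had an entry in the promoter table, and the first listed start of each was searched. STAT5 letters were present in 5 of the 35 (Slc22a15, Slc22a26, Slc22a16, Slc22a19 and Slco1b2), against 7.02% of all 32851 windows of the table. Later listed starts of Slco2b1 and Slco1a5 also held them and were not counted, while the 32851 windows include such later starts. The forkhead letters were in 0 of the 35 windows (3.17% of all windows) and the ONECUT core in 4 (6.72%). A match describes letters in these windows only. The window listed for Slc22a27 is not shown as a promoter because it aligned to the Slc22a29 transcript over 257 columns with 220 identical bases (85.6%). It is still counted among the 35 windows and held no match.

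Of the 26 Slc22 members, 15 passed the filter on low counts, and 3 of these were called, all lower in MøFoxO1-KO livers (background for this direction 0.136%). The same 3 passed the adjusted P alone (background 0.173%). No member was called higher (background 0.0527%) or passed the adjusted P alone in that direction (background 0.121%). At an unadjusted P under 0.05 there were 4 members higher and 3 lower, against 8.65% and 8.06% of all tested genes. The groups did not overlap in 4 members with MøFoxO1-KO above WT (background 5.0%) and in 3 below (background 4.71%), 7 of 15 in either direction (background 9.71%). A log2 fold change under 0 was found in 8 of the 15, against 51.7% of all tested genes. The median log2 fold change of the 15 was -0.02, next to -0.01 for all tested genes. Slc22a26 and Slc22a29 passed the filter through their WT counts, since not every MøFoxO1-KO library reached the minimum of 10 counts, so the counts over the members that passed are a description only.

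**Figure D1:**
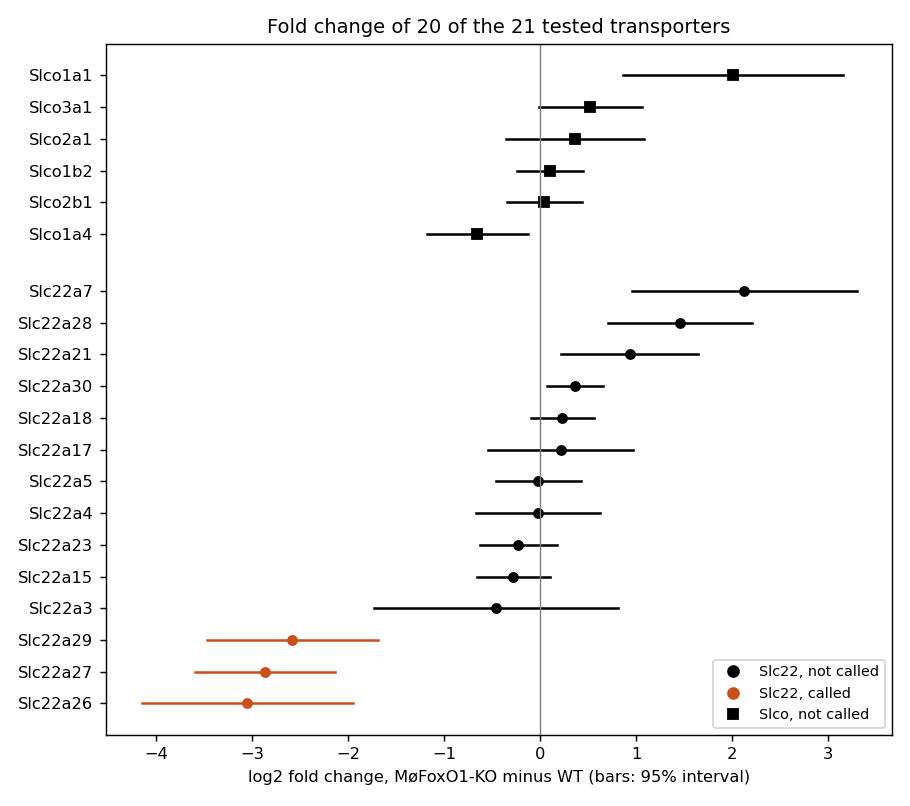
Log2 fold change (x axis, MøFoxO1-KO minus WT) with 95% interval for 20 of the 21 tested members (y axis), circles for Slc22 and squares for Slco. Slc22a26, Slc22a27 and Slc22a29, in orange, lie between -3.05 and -2.58 and are the called members, and the black members lie between -0.66 and 2.12.

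The OAT group held the called genes. It had 14 members in the table, of which 6 passed the filter: Slc22a7 on chromosome 17 and Slc22a26 to Slc22a30 on chromosome 19. In all 6 the groups did not overlap (background 9.71%), 3 with MøFoxO1-KO above WT (background 5.0%) and 3 below (background 4.71%). Slc22a26 and Slc22a29 were among the 6 through their WT counts. Slc22a27 shares transcript sequence with Slc22a29, and Slc22a28 with Slc22a30, so the 6 are not fully separate measurements. The group was listed with earlier results known, and this count is a description only. The 5 tested cluster genes follow each other on the minus strand, with 61720 bases between Slc22a26 and Slc22a27, 96181 to Slc22a28, 28182 to Slc22a29 and 116470 to Slc22a30.

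Slc22a27 (ENSMUSG00000067656, chr19:7864388-7966027, mm10) fell in MøFoxO1-KO livers. It had normalized counts, scaled to a common library size, of 360, 297, 161 and 320 in WT replicates 22 to 25 and 41.2, 20.3, 56.0 and 35.8 in MøFoxO1-KO replicates 26 to 29. Every MøFoxO1-KO value was below the lowest WT value, that of replicate 24. Group means stood at 284 ± 86.4 for WT and 38.3 ± 14.7 for MøFoxO1-KO (SD, n = 4 each), a log2 fold change of -2.87 (SE 0.33, 95% interval -3.60 to -2.14) and an adjusted P of 0.0136 in the edgeR test. This P was at rank 4 of all tested genes. Slc22a27 was also called in 7 of the 8 fits with a mouse left out, the exception being the one without WT replicate 25 (adjusted P = 0.0513, edgeR).

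Slc22a29 (ENSMUSG00000075044, chr19:8160165-8218900) likewise fell, from 124, 130, 66.5 and 187 normalized counts in the WT mice to 28.8, 8.36, 23.7 and 22.4 in the MøFoxO1-KO mice. WT replicate 24 was again the lowest of its group and still above each MøFoxO1-KO mouse. Its mean was 127 ± 49.3 in WT and 20.8 ± 8.74 in MøFoxO1-KO livers, with a log2 fold change of -2.58 (SE 0.40, interval -3.47 to -1.69) and an adjusted P of 0.0337 (edgeR). The call held in 2 of the 8 fits with a mouse left out, those without MøFoxO1-KO replicate 28 or WT replicate 24. In the other 6 the log2 fold change stayed between -2.78 and -2.33 and the adjusted P between 0.062 and 0.093 (edgeR). The call also ended with 1 surrogate variable in the edgeR fit (adjusted P = 0.0779) and with limma-voom (adjusted P = 0.0955).

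Slc22a26 (ENSMUSG00000053303, chr19:7781041-7802667) was the third member that fell. Its raw counts were 88, 53, 99 and 189 in WT mice and 6, 7, 15 and 19 in MøFoxO1-KO mice, so this comparison rests on few reads in the second group. On the normalized scale the means were 104 ± 58.9 and 12.4 ± 6.89 (SD, n = 4 each), with WT replicate 25 the highest at 188. The log2 fold change was -3.05 (SE 0.49, interval -4.15 to -1.95) with an adjusted P of 0.0377 (edgeR). It was called in 2 of the 8 fits with a mouse left out, without MøFoxO1-KO replicate 28 or WT replicate 23, and the highest adjusted P of the others was 0.156 without MøFoxO1-KO replicate 27 (edgeR). With limma-voom its adjusted P was 0.1.

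Slc22a28 (ENSMUSG00000063590, chr19:8062209-8131982) lies between the called genes Slc22a27 and Slc22a29 and differed in the other direction. Its normalized counts were 55.3, 42.3, 110 and 103 in WT and 200, 317, 182 and 150 in MøFoxO1-KO mice. The lowest MøFoxO1-KO value, that of replicate 29, was above the highest WT value. The log2 fold change was 1.45 (SE 0.34, interval 0.70 to 2.20), the unadjusted P was 0.00152 and the adjusted P was 0.11 (edgeR), so this member did not pass. In the DESeq2 test its adjusted P was 0.00201 at a log2 fold change of 1.47, short of the fold limit.

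Slc22a30 (ENSMUSG00000052562, chr19:8335371-8405111), the most abundant OAT gene in these livers, had 1912, 1499, 1680 and 2016 normalized counts in WT and 2186, 2552, 2367 and 2040 in MøFoxO1-KO mice. The groups were next to each other without overlap. Its log2 fold change of 0.36 (SE 0.13, interval 0.07 to 0.66) had an unadjusted P of 0.0194 and an adjusted P of 0.218 (edgeR).

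Reads from this cluster are not fully separable. Of all 50-base windows of the Slc22a28 transcripts 53.9% were also present in another gene, mostly Slc22a30, and 34.2% of those of Slc22a30 were shared, mostly with Slc22a28. Slc22a27 shared 29.9% of its windows, mostly with Slc22a29, which shared 28.7%. At 100 bases the shared share was 37.0% for Slc22a28, 21.1% for Slc22a30, 7.31% for Slc22a27 and 7.51% for Slc22a29. Slc22a26 shared 6.21% of its 50-base windows and Slc22a7 shared 0%. How reads matching several genes were counted is not given in the sources used here, so the split of counts within each of these pairs is uncertain.

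**Figure D2:**
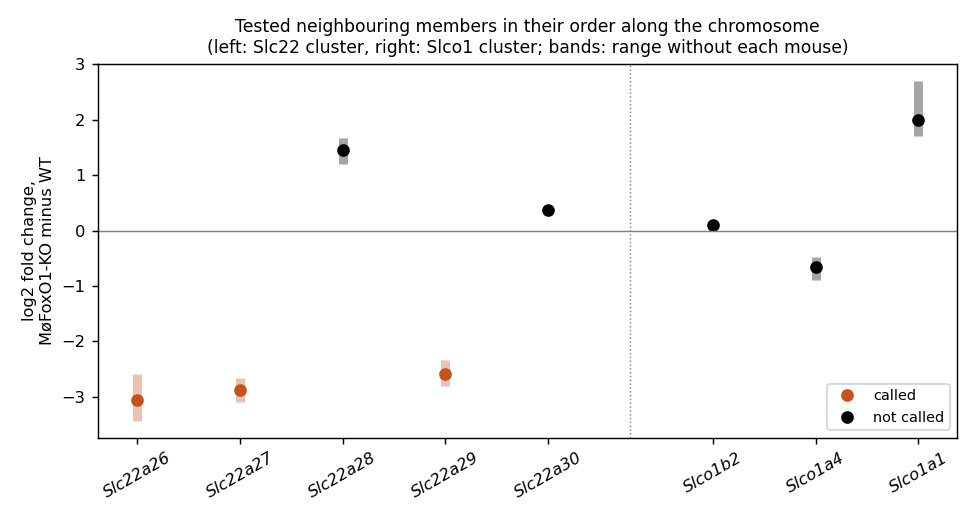
Log2 fold change (y axis, MøFoxO1-KO minus WT) of the tested neighbours of the Slc22 cluster on chromosome 19 and of the Slco1 cluster on chromosome 6, in chromosome order (x axis, not to scale), with bands for the range over the 8 fits without 1 mouse each. Slc22a26, Slc22a27 and Slc22a29 lie below -2.5 while Slc22a28 between them lies at 1.45 and Slc22a30 at 0.36.

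Slc22a7 (ENSMUSG00000067144, chr17:46432185-46438477) encodes OAT2, an anion carrier of the sinusoidal membrane. It was counted at 92.7, 212, 24.9 and 48.8 (normalized) in WT and 358, 603, 343 and 349 in MøFoxO1-KO mice. Each MøFoxO1-KO mouse was above each WT mouse, and replicate 27 stood above the other 3 MøFoxO1-KO mice. The mean was 94.7 ± 83.3 in WT and 413 ± 127 in MøFoxO1-KO livers (SD, n = 4 each). The log2 fold change was 2.12 (SE 0.53, interval 0.96 to 3.29), but the adjusted P was 0.121 in the edgeR test (unadjusted P = 0.00231). Slc22a7 was called in 1 of the 8 fits with a mouse left out (adjusted P = 0.03 and log2 fold change 2.89 without WT replicate 23, edgeR) and by DESeq2 (adjusted P = 0.0306).

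**Figure D3:**
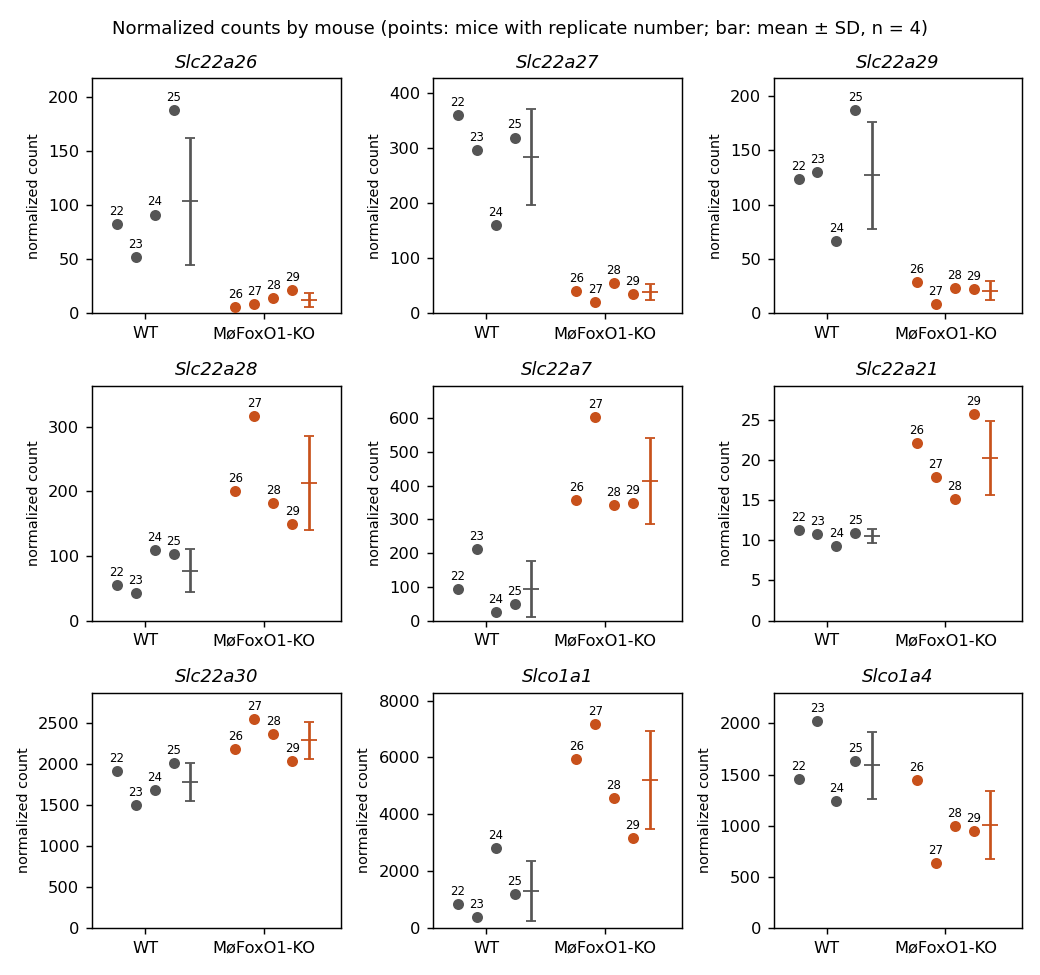
Normalized counts (y axes, from 0) of 9 members in each mouse, numbered by replicate, with mean and SD (n = 4) beside the points; WT in grey and MøFoxO1-KO in orange. The groups do not overlap in any panel except Slco1a4, where MøFoxO1-KO replicate 26 at 1449 lies among the WT mice.

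The other 8 OAT members did not pass the filter. Slc22a8 (OAT3) and Slc22a19 had 0 counts in all 8 mice, and Slc22a6 (OAT1), Slc22a12 (the urate carrier URAT1), Slc22a13 and Slc22a20 had at most 1 count in any mouse. Slc22a22 had at most 4 counts and Slc22a14 at most 8. OAT1, OAT3 and URAT1 are known from the kidney, and the kidney markers Slc34a1, Slc5a2 and Umod were at 0 in all 8 libraries, with at most 4 counts of Slc12a3. The pseudogene Slc22a13b-ps had 5 to 8 counts in WT and 4 to 13 in MøFoxO1-KO mice and shared 49.9% of its 50-base windows, mostly with Slc22a13.

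Among the OCT genes, Slc22a3 (OCT3) had 141, 486, 58.2 and 116 normalized counts in WT and 188, 203, 91.1 and 97.4 in MøFoxO1-KO mice, and the single WT replicate 23 set the sign of its difference. The log2 fold change was -0.47 (SE 0.57) with all mice and 0.47 without that mouse, neither passing the test. Slc22a2 (OCT2), a kidney carrier, had at most 3 counts in any mouse.

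In the OCTN and carnitine group, 4 of 5 members passed the filter and none was called (background 0.188%). Slc22a5 (OCTN2), the plasma membrane carnitine transporter, had 627, 630, 1170 and 839 normalized counts in WT and 688, 913, 792 and 831 in MøFoxO1-KO mice, with WT replicate 24 the highest. Its log2 fold change was -0.02 (SE 0.20, interval -0.46 to 0.42), so a difference of the size seen in the called genes lies outside the interval. Slc22a21 (OCTN3), a carnitine carrier described in the mouse, was the group's only member without overlap. It was low, at 9.23 to 11.2 normalized counts in the 4 WT mice, and in MøFoxO1-KO mice at 22.1, 17.9, 15.2 and 25.8. Its log2 fold change was 0.93 (SE 0.32, unadjusted P = 0.0157, adjusted P = 0.208, edgeR). Slc22a5 shared 26.3% of its 50-base windows, mostly with its neighbour Slc22a21. Slc22a4 (OCTN1), the ergothioneine carrier, had a log2 fold change of -0.02 (interval -0.67 to 0.62), and Slc22a15 one of -0.28 (interval -0.66 to 0.10). Slc22a16 had 0 counts in every mouse.

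Apart from the pseudogene Slc22a13b-ps, the 3 Slc22 members outside these groups all passed the filter, and none was called (background 0.188%). Slc22a18, a putative transporter in an imprinted region, had 2950, 2443, 2065 and 3247 normalized counts in WT and 3227, 3244, 2986 and 3085 in MøFoxO1-KO mice. The MøFoxO1-KO values lay within the upper part of the WT range, and the log2 fold change was 0.23 (SE 0.15, adjusted P = 0.477, edgeR). Slc22a23 had 1067, 1493, 982 and 1038 in WT and 1173, 1055, 947 and 727 in MøFoxO1-KO livers and a log2 fold change of -0.23 (SE 0.18, adjusted P = 0.561, edgeR). Slc22a17, known as a receptor for lipocalin 2, had a log2 fold change of 0.21 (interval -0.54 to 0.96).

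Levels were compared between genes per kilobase of exon and per 1e6 counts of the library (RPKM). Over the 8 mice, Slc22a18 was at 73.2 to 115 RPKM, Slc22a30 at 27.1 to 46.2 and Slc22a5 at 12.4 to 23.2. Slc22a18 was above Slc22a30 and Slc22a30 above Slc22a5 in all 8 mice, and Slc22a5 was above Slc22a23 in 7. Below this the order was not separable from the spread: Slc22a23 (6.93 to 14.3) was above Slc22a7 in 5 of 8 mice, and Slc22a7 (0.76 to 18.3) above Slc22a27 in the 4 MøFoxO1-KO mice only. Slc22a27 went from 8.05 ± 2.45 RPKM in WT to 1.09 ± 0.42 in MøFoxO1-KO mice, Slc22a29 from 3.40 ± 1.32 to 0.56 ± 0.23 and Slc22a26 from 2.14 ± 1.22 to 0.26 ± 0.14 (SD, n = 4 each). Slc22a27 made up 1.28% to 1.87% of the summed Slc22 RPKM in WT and 0.0965% to 0.33% in MøFoxO1-KO mice.

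**Figure D4:**
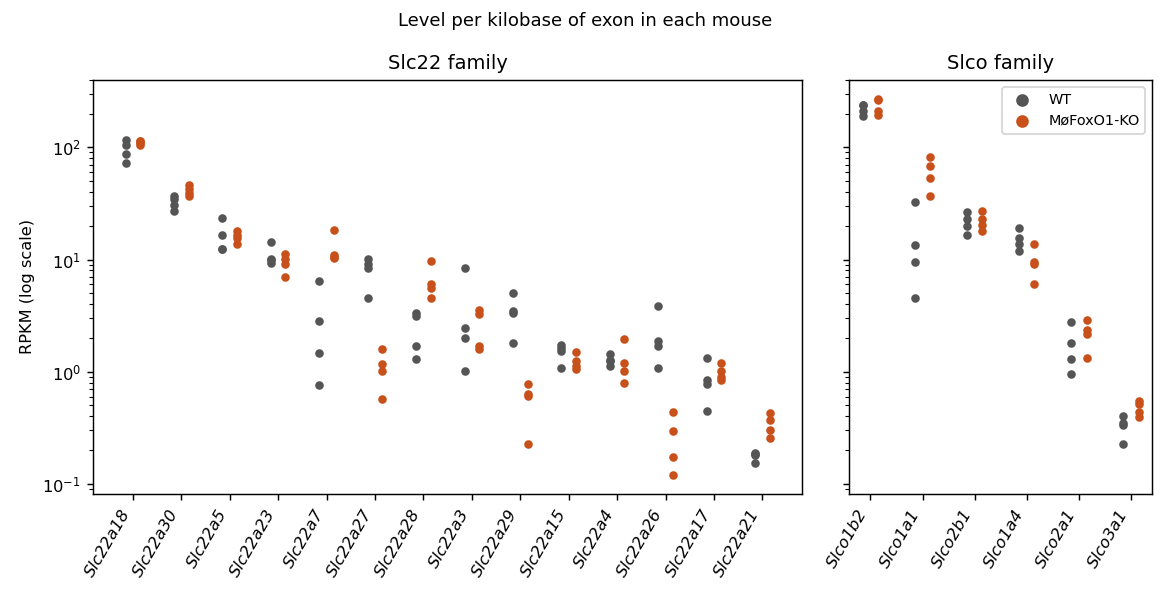
RPKM (y axis, log scale) of 20 of the 21 tested members in each mouse, WT in grey and MøFoxO1-KO in orange, ordered by the mean of all 8 mice in each family. Slco1b2 (190 to 272) lies above every other Slco member, and Slc22a18 (73.2 to 115) above every other Slc22 member plotted.

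The summed level of the Slc22 family was 469 ± 81.8 RPKM in WT and 535 ± 49.2 in MøFoxO1-KO mice, with overlapping groups. The summed Slco level was 272 ± 20.6 RPKM in WT and 329 ± 60.8 in MøFoxO1-KO mice, also overlapping. The log2 ratio of MøFoxO1-KO over WT was 0.19 for Slc22 and 0.27 for Slco in RPKM, and below 0 for both (-0.11 and -0.033) when levels were expressed as TPM, which scales all genes of a mouse to the same sum per length.

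Of the 15 Slco members, 6 passed the filter, and in the edgeR test 0 were called in either direction (background 0.188%). At an unadjusted P under 0.05 there was 1 member higher, Slco1a1 (background 8.65%), and 1 lower, Slco1a4 (background 8.06%). DESeq2 called 1 member, Slco1a1, against 1.08% of all tested genes. The groups did not overlap in 1 member, with MøFoxO1-KO above WT (background 5.0%). The median log2 fold change of the 6 was 0.23.

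Slco1a1 (ENSMUSG00000041698, chr6:141907282-141946962) encodes OATP1A1, a hepatocyte uptake carrier of steroid conjugates and bile acids with male-predominant expression in mouse liver. Its normalized counts were 827, 391, 2799 and 1177 in WT and 5927, 7172, 4580 and 3173 in MøFoxO1-KO mice. The ranges did not overlap, but WT replicate 24 came close to MøFoxO1-KO replicate 29. The mean was 1299 ± 1051 in WT and 5213 ± 1723 in MøFoxO1-KO livers (SD, n = 4 each), a log2 fold change of 2.0 (SE 0.52, interval 0.86 to 3.15) with an unadjusted P of 0.00295 and an adjusted P of 0.128 (edgeR). Leaving out WT replicate 24 gave 2.71 with an adjusted P of 0.0432 (edgeR), and with DESeq2 the adjusted P was 0.0359 with all mice.

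Slco1a4 (ENSMUSG00000030237, chr6:141805440-141856199) is the neighbour of Slco1a1, 51082 bases away, and encodes OATP1A4, a carrier of digoxin and anions with female-predominant expression in mouse liver. It had 1456, 2020, 1243 and 1634 normalized counts in WT and 1449, 639, 992 and 950 in MøFoxO1-KO mice. MøFoxO1-KO replicate 26 lay inside the WT range and the other 3 below it. The log2 fold change was -0.66 (SE 0.24, interval -1.18 to -0.13) with an unadjusted P of 0.0194 and an adjusted P of 0.218 (edgeR), so it did not pass. The 50-base windows of both genes were mostly their own, with 1.64% shared for Slco1a1 and 1.61% for Slco1a4.

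Slco1b2 (ENSMUSG00000030236, chr6:141629518-141686646), the carrier OATP1B2 of bile acids, bilirubin and statins, was by far the most abundant Slco gene. Its normalized counts were 17110, 19150, 15320 and 19200 in WT and 22020, 21300, 16910 and 15630 in MøFoxO1-KO mice. The groups overlapped, with MøFoxO1-KO replicates 28 and 29 inside the WT range and replicates 26 and 27 above it, and the log2 fold change was 0.10 (SE 0.15, interval -0.24 to 0.44, adjusted P = 0.786, edgeR). Slco2b1, an uptake carrier of steroid sulfates, had a log2 fold change of 0.04 (interval -0.35 to 0.43) and 1513 to 2456 normalized counts in WT and 1662 to 2479 in MøFoxO1-KO mice. Exons of antisense genes overlap 549 of its 5958 exon bases, and the strand setting of the counting is not given in the sources used here.

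Slco2a1, the prostaglandin transporter, had 213, 396, 615 and 291 normalized counts in WT next to 479, 646, 297 and 524 in MøFoxO1-KO livers, and a log2 fold change of 0.36 (SE 0.32, adjusted P = 0.616, edgeR). Slco3a1 had 46.8, 31.5, 56.3 and 48.8 in WT and 75.7, 54.9, 60.7 and 71.7 in MøFoxO1-KO mice, a log2 fold change of 0.52 (SE 0.24, adjusted P = 0.32, edgeR). MøFoxO1-KO replicate 27 was below WT replicate 24 in Slco3a1, and the groups also overlapped in Slco2a1. Of the 9 members that did not pass the filter, Slco4a1 had 1 to 14 counts in WT and 6 to 10 in MøFoxO1-KO mice, Slco1c1 and Slco4c1 had at most 4 in any mouse, Slco5a1 at most 3 and Slco1a6 at most 1. Slco1a5, Slco6b1, Slco6c1 and Slco6d1 had 0 counts in all 8 mice.

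Per length, Slco1b2 was at 190 to 272 RPKM and above every other Slco gene in all 8 mice. Slco1a1 ranged from 4.52 to 82.9 RPKM and was above Slco2b1 (16.4 to 26.9) in 5 of the 8 mice. Slco1a4 was at 6.07 to 19.2 RPKM and below Slco2b1 in all 8, and Slco2a1 at 0.96 to 2.91 and Slco3a1 at 0.23 to 0.54 were lower still. As a share of the summed Slco RPKM, Slco1a1 held 3.73%, 1.56%, 12.8% and 4.67% in the WT mice and between 14.1% and 22.04% in the MøFoxO1-KO mice. Slco1a4 held 4.66% to 6.63% in WT and 1.62% to 3.58% in MøFoxO1-KO mice, and Slco1b2 74.8% to 82.6% and 70.1% to 74.3%. These shares sum to 100% within a mouse, so a larger share of 1 carrier lowers those of the others.

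**Figure D5:**
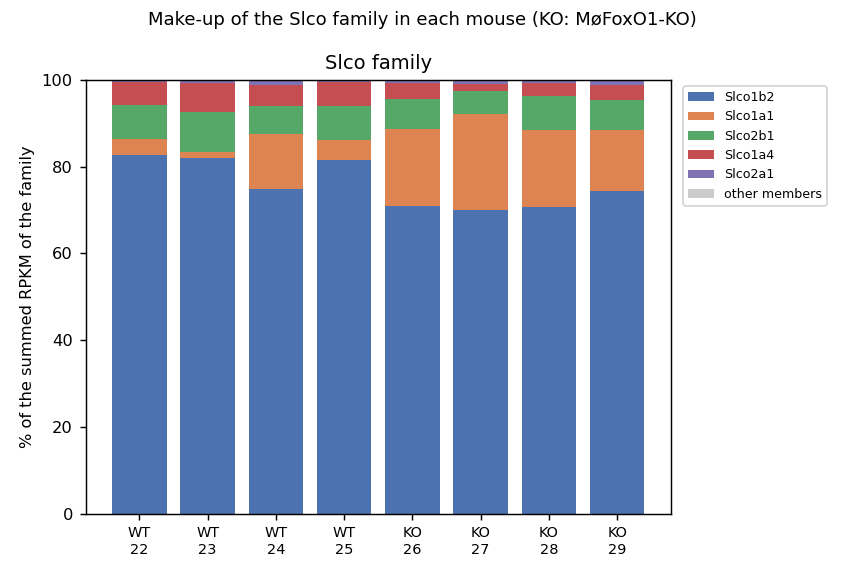
Share of each Slco member in the summed Slco RPKM (y axis, percent) in each mouse (x axis, replicate numbers; KO stands for MøFoxO1-KO). Slco1a1 takes 1.56% to 12.8% of the bars in WT and 14.1% to 22.04% in MøFoxO1-KO mice, and Slco1b2 is the largest part of every bar.

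WT replicate 24 was the WT mouse nearest to the MøFoxO1-KO values in Slc22a27, Slc22a28, Slc22a29, Slco1a1 and Slco1a4, and the farthest from them in Slc22a7. In Slc22a26 the nearest WT mouse was replicate 23 and in Slc22a30 replicate 25. MøFoxO1-KO replicate 27 had the highest normalized count of its group in Slc22a7, Slc22a28, Slc22a30 and Slco1a1 and the lowest in Slc22a27, Slc22a29 and Slco1a4.

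The transporters that work beside these carriers were read from a list of 29 sinusoidal and canalicular genes. Of 27 tested, 14 had a log2 fold change above 0 and 13 below (background 51.7%), and 1 was called (background 0.188%). This was Abcc4 (MRP4), a sinusoidal efflux pump for bile acids and nucleotides, which fell from raw counts of 279, 438, 155 and 122 in WT to 20, 28, 51 and 30 in MøFoxO1-KO mice. Its log2 fold change was -2.82 (SE 0.44) with an adjusted P of 0.0337 (edgeR), and it was called in 3 of the 8 fits with a mouse left out. Abcb1a, a canalicular drug pump, had 111, 213, 88 and 62 raw counts in WT and 18, 15, 40 and 33 in MøFoxO1-KO mice, without overlap (log2 fold change -2.04, adjusted P = 0.0968, edgeR). Abcg2 (BCRP), a canalicular pump for sulfate conjugates, had a log2 fold change of 0.52 without overlap (adjusted P = 0.134, edgeR). The partners best known for the main uptake carriers were not called: the bile acid carrier Slc10a1 (NTCP) had a log2 fold change of 0.27 (SE 0.22), the canalicular bile salt pump Abcb11 -0.13 (SE 0.22), the conjugate pump Abcc2 -0.18 (SE 0.16) and the cation exporter Slc47a1 (MATE1) -0.26 (SE 0.19). Slc51a and Slc51b did not pass the filter, with at most 1 and 11 counts.

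Because Slco1a1 and Slco1a4 are known for opposite sex bias in mouse liver, other genes with such a bias were counted in these male mice. All 10 male-predominant genes listed had a log2 fold change above 0, with a median of 1.44 against -0.01 for all tested genes, and 2 were called higher (background 0.0527%). They were Hsd3b5, a steroid dehydrogenase (raw counts 13, 3, 49 and 31 in WT and 3918, 2897, 1238 and 692 in MøFoxO1-KO mice, log2 fold change 6.64, SE 0.76, adjusted P = 0.0136, edgeR), and Cyp7b1, an oxysterol hydroxylase (log2 fold change 2.07, SE 0.33, adjusted P = 0.037, edgeR). Cyp7b1 was called in 2 of the 8 fits with a mouse left out (highest adjusted P 0.135, edgeR). Hsd3b5 and Ugt2b38 passed the filter through their MøFoxO1-KO counts, and Hsd3b5 could not be tested when every mouse needed 10 counts, so the count and median of this list are a description only. The groups did not overlap in 5 of the 10 (background 5.0%), these being the called genes and Cyp2d9 (log2 fold change 0.59), Mup21 (2.64) and Ugt2b38 (2.54). Of 10 female-predominant genes 5 passed the filter, all 5 with a log2 fold change below 0 and a median of -2.53, and 1 was called lower (background 0.136%). Cyp2a4 passed through its WT counts, since not every MøFoxO1-KO library reached 10 counts, and Cux2 reached 10 counts in 3 WT mice and 1 MøFoxO1-KO mouse, so this count and median are a description only. The gene called lower was Cyp2a4, a steroid hydroxylase, which fell by 3.35 on the log2 scale (SE 0.40, adjusted P = 0.0147, edgeR). It could not be tested when every mouse needed 10 counts. In Abcd2, a peroxisomal fatty acid transporter, the groups did not overlap either (log2 fold change -2.53, adjusted P = 0.145, edgeR). Cyp3a41a had 0 counts in all mice, and Cyp3a44, Sult2a1 and A1bg had at most 6 counts in WT and at most 1 in MøFoxO1-KO mice. This list was chosen with earlier results of these mice known, so its direction is not independent evidence.

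The regulators of these carriers were measured as well. Of 17 transcription factors, all tested, 4 had a log2 fold change above 0 and 13 below. Of all tested genes 51.7% were below 0. None of the 17 was called in the edgeR test (background 0.188%) or the DESeq2 test (background 1.08%). At these shares, no call among so few genes is not a result about them. Ahr had a log2 fold change of -0.47 (unadjusted P = 0.0118, adjusted P = 0.19, edgeR). Hnf4a (-0.32), the bile acid receptor Nr1h4 (-0.07), Nr1i2 (-0.16), Nr1i3 (-0.03) and Ppara (-0.26) had overlapping groups.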

How the data were processed

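Liver polyA RNA of 8 mice was sequenced by the study, 1 library per mouse, from an NEBNext Ultra kit. The authors aligned reads with STAR to mm10 and deposited raw counts per gene from featureCounts, per the labels and the submitters' processing notes; tool versions, the strand option and the handling of multi-mapping reads are not given in the sources used here. The deposited table gives 46517 genes with exon length, 23665 with a count. Gene identifiers were mapped to symbols with GENCODE M21 (46005 matched).

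Counts were filtered (filterByExpr of edgeR 4.0.16, minimum count 10, minimum total 15), scaled by TMM and tested between the groups with the edgeR quasi-likelihood F test in R 4.3.3. P values were adjusted by Benjamini-Hochberg over all 13278 tested genes. The common biological coefficient of variation was 0.256. RPKM used the TMM-scaled library and the deposited exon length. The count totals bound the precision, and the p-values set the difference between the groups against the variation between mice within them. The alternatives were DESeq2 1.42.0, DESeq2 size factors, upper-quartile scaling, limma-voom (limma 3.58.1), a robust fit, 1 surrogate variable (sva 3.50.0), other filters and thresholds, and leaving out each mouse. The fit was tested on simulated data. Members with full values were those called, with an unadjusted P under 0.05, without overlap or among the 6 with the highest mean RPKM of a family. The other tested members were named with their log2 fold change, members that did not pass with their counts, and companion genes where called, where the groups did not overlap or as the best known partners. Ahr and the other transcription factors in the text were picked with their values in view. The members and all lists were chosen with earlier results of these data known. The values of 1 tested Slc22 member and of a few listed genes are not reported here, though counts over the lists include them. A permutation test of the summed family levels was planned, but is not reported, since members were chosen with results known. Upstream windows (250 bases) came from a RefSeq promoter table (GRCm38.p6) and were aligned in pairs over their full length; shared windows were counted in the GENCODE M21 transcripts.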

Additional observations from a re-analysis of the deposited data

Results flagged for a closer look

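In 2 of 42 groups of 4 mice (21 tested members in each genotype) a single mouse stood apart by Dixon's test at the 95% level, where chance flags about 1 in 20 groups. Slc22a7 was at 603 normalized counts in MøFoxO1-KO replicate 27, and the gap to the next mouse was 0.943 of the group's range. Slc22a23 was at 1493 normalized counts in WT replicate 23, with a gap of 0.834 of the range. Neither gene was called in the edgeR test.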

How the results depend on the processing

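No paired analysis was made, because the labels give no litter or pair for the mice (replicates 22 to 25 and 26 to 29). The 3 called Slc22 members became 4 with DESeq2 and 4 with no filter, where Slc22a7 was added. They were 2 (Slc22a26 and Slc22a27) with 1 surrogate variable and 1 (Slc22a27) with limma-voom. Only Slc22a27 was called when every mouse needed at least 10 counts, where Slc22a26 and Slc22a29 could not be tested by construction. Leaving out 1 mouse gave 0 to 3, with 0 without WT replicate 25. Only Slc22a27 was called without WT replicate 22 or MøFoxO1-KO replicates 26, 27 or 29. Without WT replicate 23 the called members were Slc22a7, Slc22a26 and Slc22a27. The 0 called Slco members became 1 (Slco1a1) with DESeq2 and with no filter, and 0 to 1 with 1 mouse left out. The 25 called genes of the whole table became 144 with DESeq2, 120 with no filter, 13 with limma-voom, 39 by adjusted p alone and 95 at an adjusted p under 0.1 and a log2 fold change over 1, and 3 to 82 with 1 mouse left out. The 4 called companion genes became 10 with DESeq2, 10 with no filter, 2 with limma-voom, 2 when every mouse needed 10 counts, 2 with 1 surrogate variable, and 0 to 6 with 1 mouse left out. The log2 ratios of the summed levels, 0.19 for Slc22 and 0.27 for Slco, were -0.11 and -0.033 in TPM (transcripts scaled to a sum of 1e6). Signs turned only in members that were not called: Slc22a5 was 0.022 with limma-voom, and with 1 surrogate variable Slc22a23 was 0.011, Slc22a3 0.76, Slc22a4 0.10 and Slc22a17 -0.095. With 1 mouse left out, Slc22a5 ranged from -0.13 to 0.20, Slc22a3 from -0.77 to 0.47 (the latter without WT replicate 23), Slc22a4 from -0.33 to 0.14 and Slco2b1 from -0.073 to 0.16. The cause of these moves was not tested. The median log2 fold change of all genes lay between -0.02 and 0.01 over all fits. Depth limits Slc22a26, Slc22a29 and Slc22a21 most, whose counts were at most 30 in 1 group or both.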
